A study of Mus musculus with 21 samples.

Results

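The effect of a Jak1 knock-in was compared between the liver and the skin of the same newborn mice. The samples titled Liver KI, Liver WT, Skin KI and Skin WT were taken, 14 of the 21 samples of the series, and for every gene the difference between KI and WT mice was computed in each tissue, together with the difference of the 2 differences. The KI mice were heterozygous C57BL/6 mice carrying the H595D substitution of Jak1 with the silent changes I596I and Y597Y on the same allele, and the WT mice were newborns without them. All animals were at postnatal day 0. There were 2 KI and 5 WT mice, and each gave 1 liver and 1 skin library. Per the study's methods, the KI mice descended from a single mosaic male founder made by CRISPR-Cas9, so that they are 1 line. The skin RNA was less intact than the liver RNA, so that tissue and RNA quality cannot be told apart.

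JAK1 is a tyrosine kinase bound to the receptors of type I and type II interferons, of the IL-6 family and of the cytokines that use the common gamma chain. When a ligand joins the receptor chains, the kinase phosphorylates STAT proteins, which move to the nucleus and bind the promoters of their target genes. In hepatocytes the path from IL-6 through STAT3 drives the acute-phase proteins, while interferons induce antiviral and antigen-presentation genes in nearly every cell type, including keratinocytes, endothelium and macrophages.

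The liver libraries held 30105720 to 38388133 reads counted on genes and the skin libraries 28637568 to 34900383. Levels are given in CPM, the gene's count divided by the normalized size of its library, scaled within each tissue, so that a level in the liver is not compared with a level in the skin. A liver and a skin library that share genotype and number were treated as coming from 1 mouse. Over the 14206 genes tested in both tissues, and after the group means were removed, each of the 5 WT livers correlated best across genes with the skin of its own number (r from 0.062 to 0.238, against at most 0.0509 with the skin of another WT mouse). Y-linked genes were expressed in KI 2 and WT 3 in both tissues. Albumin and the other hepatocyte markers summed to 181000 to 223000 CPM in the livers. The defining keratin genes of keratinocytes were present in every skin library, at unequal levels given with the skin results.

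A gene was counted as moving alike when its mean effect over both tissues passed an adjusted p of 0.1 and both KI mice lay on the same side of every WT mouse, in the liver as well as in the skin. The mean effect was fitted with limma-voom with the mouse as a random block, and p-values were adjusted by Benjamini-Hochberg over all genes tested in both tissues. By this rule 217 genes were higher in the KI mice (1.53% of the genes tested) and 10 were lower (0.0704%). The mean effect by itself was called for 327 higher (2.30%) and 20 lower genes (0.141%). Both KI mice lay above all WT mice in both tissues for 299 genes (2.10%) and below them for 87 (0.612%). In a single tissue, KI mice lay above for 1849 genes in the liver (13.0%) and 737 in the skin (5.19%), and below for 1606 (11.3%) and 706 (4.97%).

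The higher genes included selectins, interferon-induced antiviral genes, complement factors, genes of class I antigen presentation and receptors of myeloid cells. Of the 217, 61 were on the 18 gene lists examined, which held 307 of the genes tested. The lists were written with earlier results of these data known, so that their counts are descriptions. Beside each list's count below stands the share over all genes tested, of which 1.53% moved alike and higher. Across the 217 higher genes the median log2 fold change was 0.77 for the liver and 0.81 for the skin, against -0.02 and -0.03 over all genes tested in both. The rule chose genes with higher KI values in both tissues, so these medians only describe the size of the change. For 92 of them the fold was larger in the liver and for 125 it was larger in the skin. The difference between the tissues, skin minus liver, had a median of 0.06 on the log2 scale, and its 95% interval reached a median of 0.62 to either side. For 129 of the 217 genes, and 6 of the 10 lower ones, that interval lay within 2-fold in both directions. For the others the interval included a difference of more than 2-fold. Of the 13009 genes with a place in the annotation, 203 moved alike and higher. The largest shares were on chromosomes 17 (19 of 651 genes, 2.92%), 1 (21 of 767, 2.74%), 19 (12 of 452, 2.65%) and 6 (16 of 639, 2.5%).

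**Figure D1:**
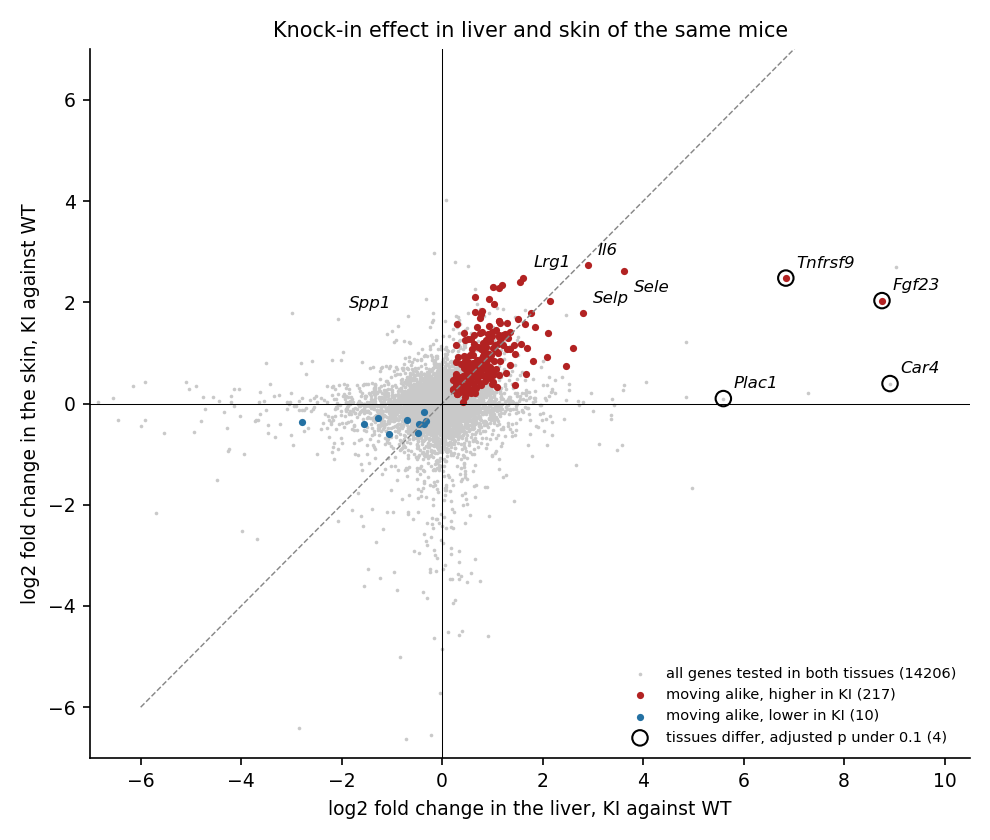
Log2 fold changes between KI and WT mice in the liver (horizontal axis) and in the skin (vertical axis) for the 14206 genes tested in both tissues, with 5 genes beyond the axes. Red and blue points are the genes that moved alike, 217 higher and 10 lower, open circles are the 4 genes called for a difference between the tissues, and the dashed line marks equal change. The red points scatter on both sides of the dashed line, and the circled genes lie far to the right of it.

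Most genes of this class were also called in the liver and few in the skin. In the liver alone, with edgeR's quasi-likelihood test at an adjusted p under 0.1, 582 genes were higher (3.89% of the genes tested there) and 251 lower (1.68%). In the skin alone the same test called 4 genes higher (0.0247%) and 0 lower (0%), with 467 higher and 271 lower where an unadjusted p of 0.05 was applied, and 96 higher and 11 lower by DESeq2. Of the 217 genes, 159 were called in the liver and 3 in the skin. Skin fold changes had the larger standard errors, with a median of 0.192 against 0.157 in the liver. The counts rest on 2 KI mice. Without KI 2 the class fell to 30 higher genes, 22 of them among the 217. Without KI 1 there were 191, of which 122 were among the 217, and without WT 1 there were 141, of which 135 were. The calls in the liver, 833 in both directions, came to 56 without KI 2, 232 without KI 1 and 1290 without WT 4. Those of the mean effect, 347 in both directions, came to 34 without KI 2, and to 171, 210, 214 and 230 without WT 1, KI 1, WT 3 and WT 5. In the skin 1 gene was called without WT 3 and 0 without any other single mouse.

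The selectins, adhesion molecules that endothelium shows to passing leukocytes, were among the genes with the largest shared change. Selp, which encodes P-selectin (chr1:166045395-166080157 of mm9), stood at 23.8 and 23.1 CPM in the KI livers, against 4.74, 3.85, 2.49, 2.48 and 3.22 in the WT livers. In the skin it stood at 16 and 18.1 CPM in the KI mice and at 5.26, 5.86, 4.71, 4.39 and 4.65 in the WT mice. The groups were well apart in both tissues and the KI mice resembled each other. The mean log2 fold change of Selp over the tissues was 2.32 (95% interval 2.04 to 2.59, adjusted p = 9.90e-07 from limma), from 2.80 in the liver and 1.78 in the skin, where it was called (adjusted p = 0.0899 from edgeR).

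Sele, the gene of E-selectin, stood at 5.63 and 4.12 CPM in the KI livers and at 0.202, 0.51, 0.648, 0.534 and 0.0903 in the WT livers. The KI skins held 17.3 and 18.5 CPM and the WT skins 2.35, 7.18, 1.13, 3.09 and 0.846. Neither tissue showed overlap, although the WT skins spread widely. Averaged over the tissues, its log2 fold change came to 3.44 (adjusted p = 0.0015 from limma), and the skin minus liver difference of -0.83 had an interval from -2.45 to 0.78, too wide to tell equal from unequal change. Icam1, the counter-receptor of leukocyte integrins, moved alike at a smaller size, with log2 fold changes of 0.53 and 0.44. Of the 9 adhesion molecules tested in both tissues, these 3 moved alike.

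The promoter of Sele is printed because it holds the letters of 2 of the motifs searched for below. RefSeq places it at chr1:164047984-164048283 of GRCm38.p6, on the + strand, from 250 bases before the start of the transcript, and all promoters here have this layout of 300 bases. Capitals mark a STAT motif, TTCNNNGAA, and an interferon-response core, GAAANNGAA.
Sele: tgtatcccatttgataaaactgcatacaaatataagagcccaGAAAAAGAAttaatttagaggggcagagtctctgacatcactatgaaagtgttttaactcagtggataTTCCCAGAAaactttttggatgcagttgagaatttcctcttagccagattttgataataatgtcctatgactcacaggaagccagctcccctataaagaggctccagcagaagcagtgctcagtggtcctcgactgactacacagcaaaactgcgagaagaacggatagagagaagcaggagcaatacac

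Lrg1, a secreted glycoprotein of the acute phase (chr17:56259103-56261369 of mm9), stood at 278 and 277 CPM in the KI livers and at 92.3, 83.5, 105, 71.6 and 101 in the WT livers. The KI skins held 34 and 47.1 CPM, the WT skins 6.4, 6.28, 11.2, 5.63 and 6.73. All KI values lay far above the WT values, and the fold was larger in the skin, with a log2 fold change of 2.48 there and 1.62 in the liver. Their difference of 0.89 (95% interval 0.42 to 1.37) had an unadjusted p of 0.00243 and did not pass the adjustment (adjusted p = 0.405 from edgeR). Lrg1 averaged 2.08 on the log2 scale over the tissues (adjusted p = 5.88e-06 from limma).

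Il6, the cytokine that signals through JAK1 to STAT3, had 67 and 34 reads in the KI livers and 13, 8, 9, 1 and 3 reads in the WT livers. The KI skins gave 79 and 32 reads, and the WT skins 3, 27, 3, 5 and 4. The KI mice lay above in both tissues, narrowly so in the skin, where WT 2 reached 0.865 CPM against 1.12 CPM in KI 2. Its mean log2 fold change was 3.13 (95% interval 1.97 to 4.28, adjusted p = 0.00955 from limma) and was not called without KI 1 (2.56, adjusted p = 0.146 from limma). Il1b and the chemokine gene Ccl2 also moved alike, with log2 fold changes of 2.14 and 1.29 in the liver and 2.03 and 1.60 in the skin. The tissue values come from edgeR's fits of counts and the mean effect from limma-voom on log values. A mean effect can therefore lie above both tissue values, as it did for these genes. The mean effect of Il1b (2.91) was not called without KI 1 or KI 2 (adjusted p = 0.335 and 0.357 from limma), nor without WT 3 or WT 5, and ran from 1.12 to 3.39 over the alternatives. That of Ccl2 (1.70) was not called without KI 1 or KI 2 (adjusted p = 0.302 and 0.467 from limma), nor without WT 1 or WT 5. No other of the 27 NF-κB feedback and inflammatory genes tested in both did so, and the list had medians of 0.51 in the liver and 0.55 in the skin.

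**Figure D2:**
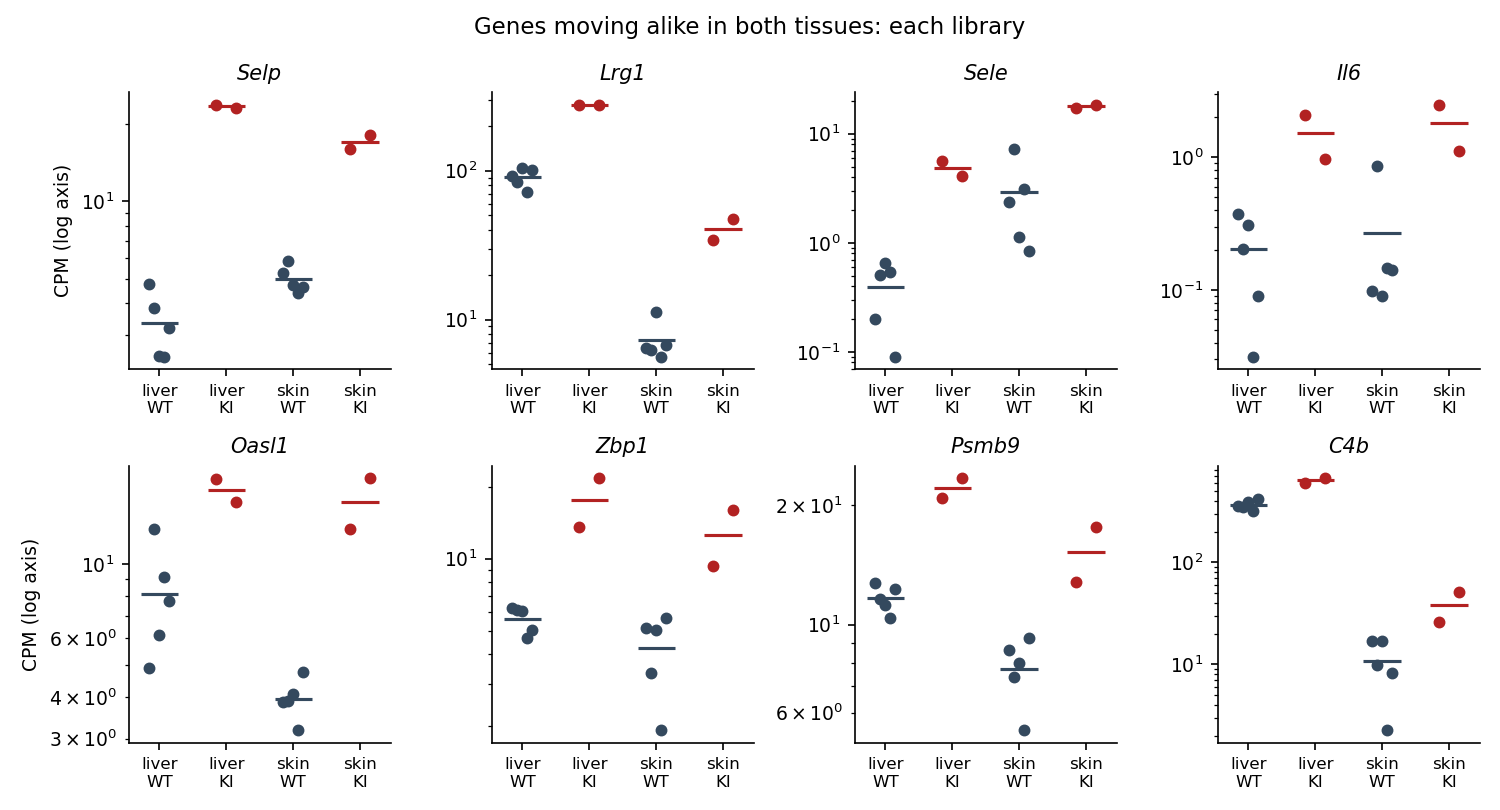
CPM on a log axis of 8 genes that moved alike, 1 point per library, with WT in dark blue and KI in red, and bars at the group means (2 KI and 5 WT mice per tissue). In each panel both KI points lie above all 5 WT points in the liver and again in the skin. The smallest gaps are those of Il6 in the skin and Oasl1 in the liver.

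Antiviral genes induced by type I interferon were the list with the most members moving alike. Of the 36 tested in both tissues, 22 moved alike, 18 were called higher in the liver and 1 in the skin, and the liver had a median log2 fold change of 0.66 and the skin one of 0.93. The median difference, skin minus liver, was 0.47 over the list, and no member was called for it. Zbp1, a sensor of nucleic acids in Z-form, stood at 13.5 and 21.7 CPM in the KI livers, against 6.21, 6.1, 6.04, 4.68 and 5.02 in the WT livers. Its skin values were 9.3 and 15.9 CPM in the KI mice and 5.13, 3.33, 5.03, 1.92 and 5.67 in the WT mice. KI 2 was the higher KI mouse in both tissues. The fold changes of Zbp1 were close, 1.65 and 1.58 on the log2 scale, with an interval of the difference from -0.80 to 0.82. The mean effect of Zbp1 was not called without KI 2 (1.26, adjusted p = 0.149 from limma).

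Other antiviral genes had their larger fold in the skin. Rsad2, which encodes viperin, stood at 513 and 494 CPM in the KI livers and at 440, 407, 409, 409 and 384 in the WT livers. In the skin it stood at 37.7 and 35.6 CPM, against 12.6, 15.7, 16.1, 6.16 and 11.1 CPM. The liver groups were separate by a small step and the skin groups by a large one. The log2 fold changes of Rsad2 were 0.30 and 1.57, and their difference of 1.35 (95% interval 0.56 to 2.15) had an unadjusted p of 0.00416 (adjusted p = 0.469 from edgeR). Mx2, a GTPase that acts against viruses, was alike in pattern but overlapped in the liver, with log2 fold changes of 0.31 and 1.72. Oasl1, a relative of the 2′-5′ oligoadenylate synthetases, was called in the skin (log2 fold change 1.96, adjusted p = 0.0899 from edgeR) and moved alike with 1.03 in the liver. Ifit1 and Isg15, named after their values were seen, had log2 fold changes of 1.13 and 0.92 in the liver and 1.63 and 1.38 in the skin.

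Promoters were searched for the letters of 3 motifs on both strands: the STAT motif, the interferon-response core (ISRE) and an NF-κB motif, GGGANTTCC. RefSeq had a promoter for 155 of the 217 higher genes, 194 promoters in all. The interferon-response core was in 24.7% of them, against 7.25% of the 13614 promoters of genes tested in both tissues and 8.56% of all 32851 promoters. The STAT motif was in 16.5%, against 7.04% and 8.3%, and the NF-κB motif in 2.58%, against 2.16% and 1.68%. Among the type I interferon genes that moved alike, 10 of 15 promoters held the interferon-response core, and outside that list it was in 21.2% of 179 promoters. A match of letters is not evidence of binding. The promoters of Ifit1, Isg15 and Rsad2 are printed as examples with the core in capitals, which in the former 2 is repeated so that matches overlap or follow each other closely. They lie at chr19:34640639-34640938 (+ strand), chr4:156200769-156201068 (- strand) and chr12:26456403-26456702 (- strand) of GRCm38.p6.
Ifit1: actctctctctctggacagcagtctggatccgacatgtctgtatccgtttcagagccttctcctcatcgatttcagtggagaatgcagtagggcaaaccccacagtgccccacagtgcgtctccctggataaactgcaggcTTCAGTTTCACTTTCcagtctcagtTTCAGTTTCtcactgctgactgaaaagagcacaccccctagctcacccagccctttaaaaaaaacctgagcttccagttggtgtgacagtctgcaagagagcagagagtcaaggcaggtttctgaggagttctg
Isg15: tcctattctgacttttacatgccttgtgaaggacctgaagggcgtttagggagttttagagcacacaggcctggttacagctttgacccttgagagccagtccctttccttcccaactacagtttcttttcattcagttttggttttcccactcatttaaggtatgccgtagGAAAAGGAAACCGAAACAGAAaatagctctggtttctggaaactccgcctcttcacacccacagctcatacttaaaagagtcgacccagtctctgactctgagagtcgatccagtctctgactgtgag
Rsad2: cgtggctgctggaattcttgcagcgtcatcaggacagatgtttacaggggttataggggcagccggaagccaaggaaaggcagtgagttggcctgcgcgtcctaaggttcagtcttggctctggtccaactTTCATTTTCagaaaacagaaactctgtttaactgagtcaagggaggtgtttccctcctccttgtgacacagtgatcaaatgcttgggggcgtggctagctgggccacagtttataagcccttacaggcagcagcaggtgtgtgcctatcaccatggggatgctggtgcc

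Among the genes of antigen presentation, those of class I moved alike most often. In the class I list, 10 of 16 genes tested in both were called in the liver and 7 moved alike, among them B2m, the light chain of class I molecules (0.44 in the liver and 0.70 in the skin). Psmb9, an immunoproteasome subunit, stood at 20.8 and 23.4 CPM in the KI livers, against 12.7, 11.6, 11.2, 10.4 and 12.3 CPM, and at 12.8 and 17.6 CPM in the KI skins, against 8.62, 7.4, 8.01, 5.42 and 9.27 CPM. No KI library came within the WT range. Its log2 fold changes, 0.92 and 0.97, differed by 0.07 (95% interval -0.38 to 0.52), and the mean effect was not called without KI 2 (0.80, adjusted p = 0.108 from limma). In the class II list 2 of 10 genes moved alike, with medians of 0.68 in the liver and 0.29 in the skin, and H2-DMb2 and the class II regulator Ciita had skin values below 0 (-0.50 and -1.03). Both rest on few reads there. H2-DMb2 had 9 and 8 reads in the KI skins against 11, 19, 9, 13 and 11. Ciita had 17 and 9 against 64, 12, 15, 10 and 33. Of 22 interferon-γ-induced genes, 4 moved alike (Gbp2, Gbp5, Irf8 and Nlrc5), with medians of 0.53 in the liver and 0.97 in the skin. Nlrc5, a regulator of class I transcription, had log2 fold changes of 1.16 and 1.59 and was not called without KI 2 (mean 0.98, adjusted p = 0.632 from limma).

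Complement genes moved alike in 10 of 14 cases, against 1.53% of all genes tested. C4b, whose product opens the classical pathway's convertase, stood at 606 and 671 CPM in the KI livers, against 360, 350, 392, 321 and 416 in the WT livers. The skin values were 25.9 and 51.2 CPM in the KI mice and 17, 9.77, 17.1, 2.27 and 8.18 in the WT mice. The skins varied more than the livers in both groups, and the mean effect of C4b was not called without KI 2 (1.15, adjusted p = 0.656 from limma). The 3 C1q chains had fold changes of similar size in both tissues: C1qa stood at a log2 fold change of 0.54 in the liver and 0.68 in the skin, with the interval of its difference from -0.54 to 0.84. Cfb, factor B of the alternative pathway, had 0.29 in the liver and 1.16 in the skin. C4b and the neighbouring C4a are near-identical copies, and reads that match both were tallied apart by the authors, so that their counts are uncertain. The same holds for the class I genes and for the Oas and Ifi families.

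Markers of other cell types were examined beside these values. Of the hepatocyte list, only Trf, the transferrin gene, was abundant in the skin, at 1080 and 2790 CPM in the KI skins and 1310, 642, 1530, 321 and 595 in the WT skins. The other 7 markers, summed without Trf after the values were seen, came to 5.55 and 3.02 CPM in the KI skins and to 5.36, 13.7, 5.93, 37.6 and 23.2 in the WT skins. These sums are 0.00225% to 0.0244% of the same mouse's liver, and both KI skins were below 4 of the 5 WT skins. Fgl1 and Serpina3n, secreted proteins that hepatocytes make, moved alike, with log2 fold changes of 1.14 and 1.13 in the liver and 1.22 and 1.32 in the skin. Fgl1 stood at 2.99 and 4.07 CPM in the KI skins and at 1.44, 1.31, 2.14, 1.03 and 1.66 in the WT skins.

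Macrophage markers summed to 1120 and 939 CPM in the KI livers against 677 to 872 in the WT livers, and to 626 and 828 CPM in the KI skins against 412 to 590. Of the 7 tested in both tissues, 4 moved alike, against 1.53% of all genes tested. Neutrophil markers were higher in the KI livers, at 6430 and 7580 CPM against 4030 to 5270, and overlapped in the skin, at 18.6 and 27.6 CPM against 15.7 to 35.8. The myeloid receptor genes Trem1, Clec4e and Clec4d, the schlafen-family gene Slfn4 and the growth factor receptor gene Csf3r moved alike, with log2 fold changes from 1.13 to 1.76 in the liver and from 1.16 to 2.40 in the skin. Trem1 was near the detection limit in the skin, with 36 and 28 reads in the KI mice and 10, 9, 0, 13 and 2 in the WT mice. Clec4e was as sparse there, with 35 and 16 reads in the KI mice and 3, 3, 2, 17 and 1 in the WT mice, and KI 2 at 0.561 CPM barely exceeded WT 4 at 0.501 CPM. The mean effects of Trem1 and Clec4e were not called without KI 1 (adjusted p = 0.368 and 0.142 from limma) or KI 2 (0.568 and 0.149), those of Slfn4 and Clec4d were not called without KI 2 (0.208 and 0.1), and that of Trem1 was also lost without WT 3 or WT 5. In whole tissue, more cells of a type and more RNA per cell cannot be told apart, and the part of these markers was not tested.

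Keratinocyte markers summed to 12500 and 1010 CPM in the KI skins and to 8730, 3710, 4940, 14700 and 1780 in the WT skins, so that the level of epidermal transcripts differed widely between skin libraries, KI 1 and KI 2 included. With the log2 of this sum as a covariate for the skin, a setting added after the data were seen, 223 genes moved alike and higher, 214 of them among the 217. The 6 epidermal stress and cornification genes tested in both tissues included 0 that moved alike.

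**Figure D3:**
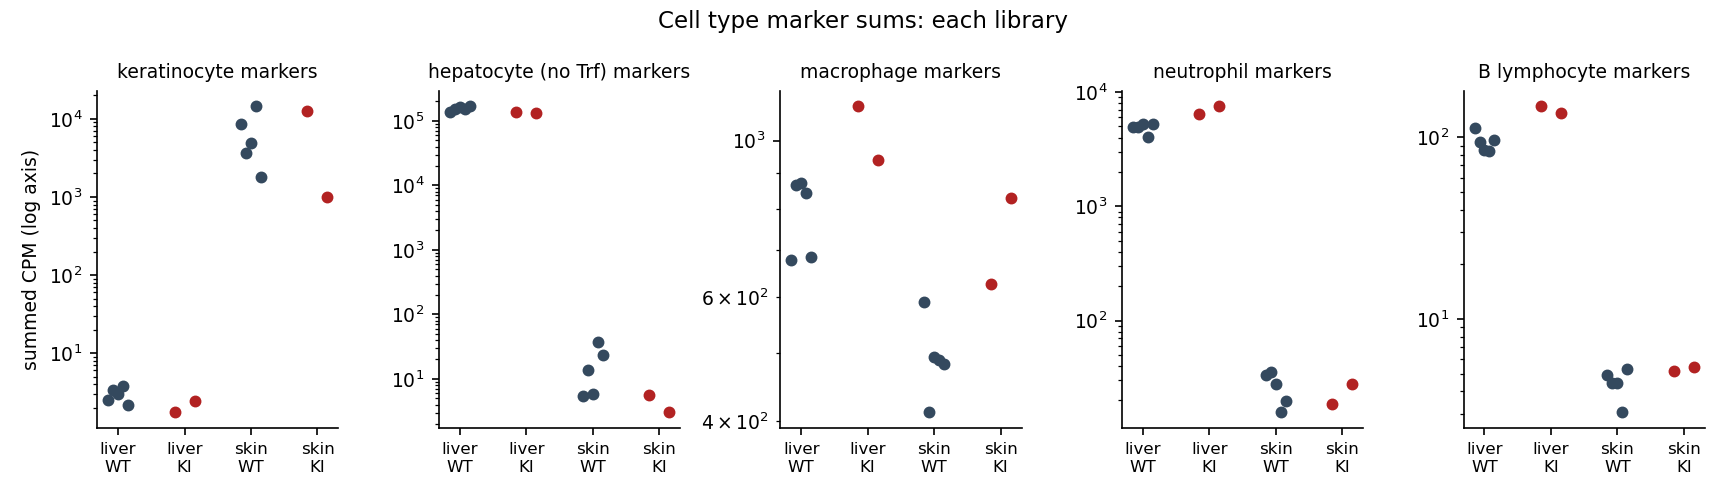
Summed CPM of 5 marker lists on a log axis, 1 point per library, WT in dark blue and KI in red. Keratinocyte markers range from 1010 to 14700 CPM among the skins, with KI at 12500 and 1010, hepatocyte markers, drawn without Trf, are at 37.6 CPM or less in the skins, and the macrophage sums of the KI mice lie above those of the WT mice in both tissues.

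The 11 kinases and STAT factors had median log2 fold changes of 0.30 in the liver and 0.26 in the skin, and the 20 receptors that use JAK1 had 0.32 and 0.34. Jak1 itself stood at 196 and 208 CPM in the KI livers, against 168, 164, 168, 173 and 147, and at 212 and 205 CPM in the KI skins, against 175, 178, 195, 197 and 171. It moved alike with a narrow gap between the groups, by 0.26 on the log2 scale in the mean (adjusted p = 0.0829 from limma) and a difference between the tissues from -0.42 to 0.22 (95% interval). Counts per gene cannot show a substituted base, so this level does not check the genotype. Of the receptors, 5 moved alike: Il6st, the shared chain of the IL-6 family, Il10ra, Il4ra, Il7r and Il2rg, the common gamma chain. Il4ra had the largest liver change of these, with log2 fold changes of 1.13 and 0.57, and its mean effect was not called without KI 2 (adjusted p = 0.12 from limma). Csf2rb2, a receptor chain of the IL-3 family that signals through JAK2, rose from 18.6, 18, 15.9, 20.9 and 12.5 CPM in the WT livers to 102 and 107 CPM in the KI livers. Its skin values were 55.8 and 54.9 CPM against 28.1, 29, 18.2, 31.8 and 22.9 CPM. The groups of Csf2rb2 were apart in each tissue, and the fold was larger in the liver (2.60 against 1.09, unadjusted p of the difference 5.15e-05, adjusted p = 0.122 from edgeR).

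Of 26 STAT3 targets and feedback genes, 4 moved alike and 7 were called in the liver. Socs3, the feedback inhibitor induced by STAT3, was called for the mean effect (log2 fold change 1.80, adjusted p = 0.00967 from limma) but not counted as moving alike, since KI 2 at 56.6 CPM lay below WT 2 at 60.7 CPM in the skin. Without KI 1 the mean effect of Socs3 was not called (1.53, adjusted p = 0.109 from limma). Stat3 showed fold changes of 0.43 and 0.44 with the same kind of overlap in the skin. Socs1, the inhibitor induced by interferon-γ, had a log2 fold change of 0.72 in the liver and one that rounded to 0 in the skin, where its sign turned under several settings, and the difference of -0.70 was not called (adjusted p = 0.607 from edgeR). Cebpd, a transcription factor of the acute phase, was called in the skin (1.21, adjusted p = 0.0899 from edgeR) and overlapped in the liver, where it stood at 0.46.

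The medians of the acute-phase genes, which hepatocytes make under IL-6, lay apart. The 21 genes of this list tested in both had a median log2 fold change of 0.50 in the liver and -0.03 in the skin, with 6 called in the liver. Of these 6, Lrg1, Serpina3n and Fgl1 moved alike with the values given above, while Hpx, Itih3 and Cp stood at 0.50, 0.49 and 0.93 in the liver and had -1.49, -0.39 and -0.05 in the skin. Fga and Fgg, the fibrinogen chains, stood at 1.5 CPM or less in every skin library, so that their negative skin values describe a few reads. Saa3 had the largest skin value of the list, 2.72. It had 22 and 38 reads in the KI skins against 7, 3, 10, 4 and 0. Lbp and C3 stood at 0.82 and 0.85 in the skin, and Saa1 and Lcn2 at -1.66 and -0.81. These 5 genes were not called in either tissue. No member of this list was called for a difference between the tissues.

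**Figure D4:**
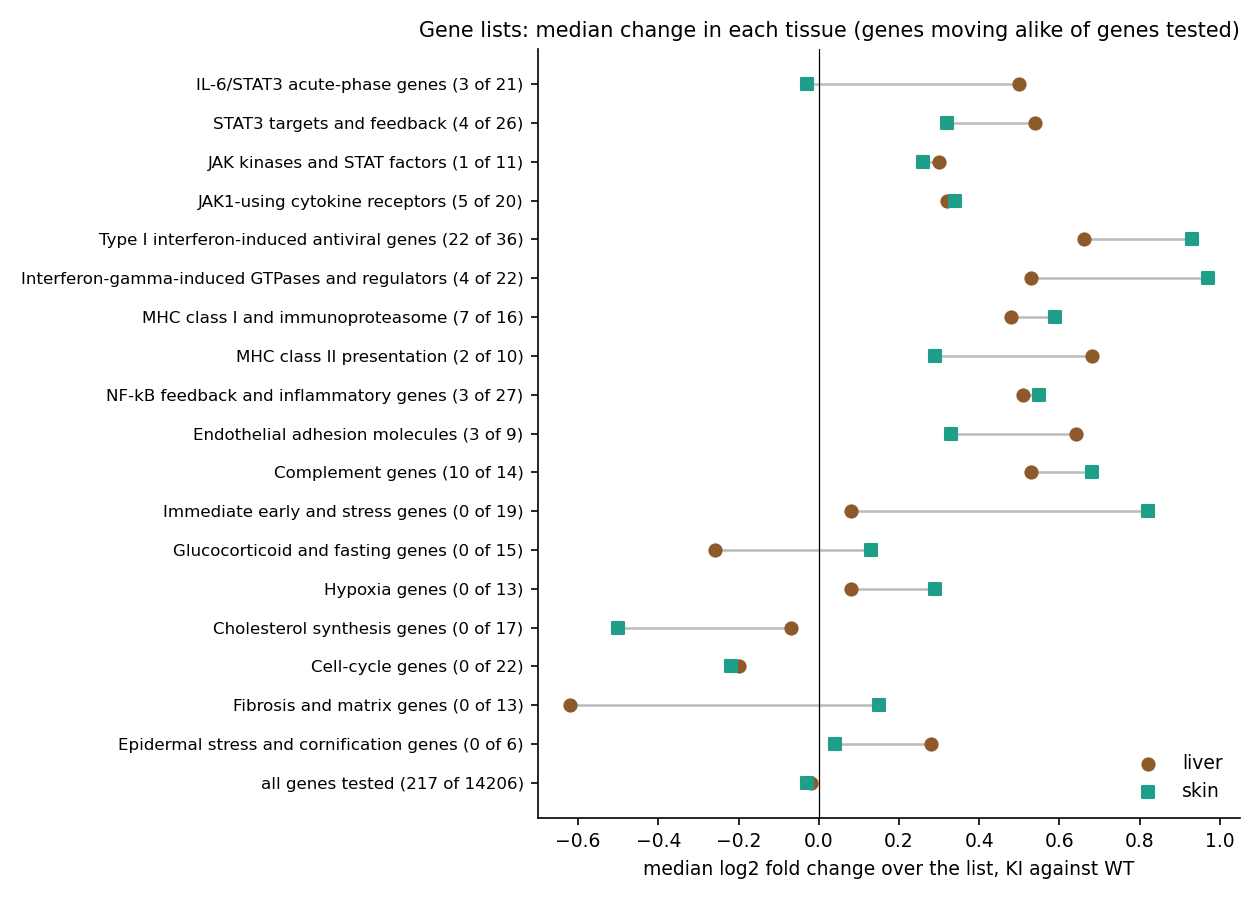
Median log2 fold change between KI and WT mice over each gene list, in the liver (brown circles) and in the skin (green squares), with the number of genes moving alike of those tested in both tissues after each name. The interferon, class I and complement lists lie to the right in both tissues, the acute-phase list is at 0.50 in the liver and -0.03 in the skin, and the lists in the lower part hold 0 genes that moved alike.

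A difference between the tissues was tested within mice, with mouse and tissue as terms. It was called for 4 genes in edgeR's quasi-likelihood test (0.0282% of the genes tested), all with the larger KI effect in the liver, and for 0 genes (0%) with the larger effect in the skin. At an unadjusted p under 0.05 the difference, skin minus liver, was negative for 479 genes and positive for 605. DESeq2 called 68 negative and 104 positive differences. These counts go by sign alone, and a positive difference can also be a larger fall in the liver. Adamts15, with a positive difference of 0.96, had log2 fold changes of -1.27 (liver) and -0.29 (skin). The 4 genes were Tnfrsf9, Fgf23, Car4 and Plac1, which were nearly silent in the WT livers. None of them passed edgeR's count filter run without genotype groups, which needs enough reads in all 7 livers. Genes nearly silent in the WT livers fail that filter by design. With a filter of at least 1 count in total, which also ignores genotype, all 4 were called. All 4 calls were lost at an adjusted p under 0.05 and when KI 1, KI 2, WT 1 or WT 2 was left out, and 1 of the 4 was called without WT 5.

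Tnfrsf9 (chr4:150288671-150320211 of mm9) encodes a co-stimulatory receptor of T cells in the TNF receptor family. It stood at 43.3 and 51.9 CPM in the KI livers and at 0.607, 0.638, 0.307, 0.251 and 0.211 in the WT livers. The KI skins held 35.1 and 30.4 CPM, the WT skins 8.79, 6.03, 9.47, 2.09 and 2.96. It was thus higher in the KI mice of both tissues and also met the rule for moving alike, with a larger fold in the liver. Its log2 fold changes were 6.84 and 2.48, a difference of -4.29 (95% interval -5.20 to -3.38, adjusted p = 0.0604 from edgeR).

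Fgf23 (chr6:127022920-127031426 of mm9), the hormone that lowers phosphate and is made mainly by bone cells, had 6018 and 5176 reads in the KI livers and 3, 12, 26, 12 and 11 in the WT livers. In the skin the counts were 281 and 216 in the KI mice and 82, 45, 57, 20 and 103 in the WT mice. The KI mice again lay above in both tissues. Its log2 fold changes were 8.75 and 2.03, with a difference of -6.61 (95% interval -8.31 to -4.92, adjusted p = 0.0631 from edgeR).

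Car4 and Plac1 moved in the liver without a detectable change in the skin. Car4 (chr11:84771288-84779546 of mm9), a membrane-bound carbonic anhydrase, had 677 and 597 reads in the KI livers and 0, 0, 0, 1 and 5 in the WT livers. In the skin it stood at 18.1 and 29.8 CPM in the KI mice, inside the WT values of 17.9, 13.9, 37.1, 7.69 and 14.6 CPM. Plac1, a gene of the placenta (chrX:50423172-50593288 of mm9), stood at 9.53 and 13.6 CPM in the KI livers, against 0.0578, 0.128, 0.409, 0.314 and 0.301. Its skin values were 2.58 and 4 CPM in the KI mice and 2.51, 3.27, 2.77, 3.01 and 3.81 in the WT mice, with full overlap. The skin log2 fold changes were 0.39 for Car4 and 0.10 for Plac1, and the differences were -8.48 (95% interval -10.46 to -6.50, adjusted p = 0.0615 from edgeR) and -5.57 (95% interval -6.94 to -4.19, adjusted p = 0.0623 from edgeR). A fitted fold against so few counts depends on the prior count.

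The promoters of Tnfrsf9 and Fgf23 are printed for the motifs they hold. RefSeq lists 2 starts of Tnfrsf9, and the one shown, at chr4:150927749-150928048 (+ strand), holds a STAT and an NF-κB motif in capitals, while the other start holds no letters of the 3 motifs. That of Fgf23, at chr6:127072652-127072951 (+ strand), holds 1 STAT motif. Both are from GRCm38.p6.
Tnfrsf9: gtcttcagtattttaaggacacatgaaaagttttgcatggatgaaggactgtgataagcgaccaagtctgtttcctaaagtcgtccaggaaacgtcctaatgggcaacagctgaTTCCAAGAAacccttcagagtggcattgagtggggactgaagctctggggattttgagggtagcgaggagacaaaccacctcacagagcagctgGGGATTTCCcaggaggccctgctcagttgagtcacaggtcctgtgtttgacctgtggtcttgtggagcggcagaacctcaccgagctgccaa
Fgf23: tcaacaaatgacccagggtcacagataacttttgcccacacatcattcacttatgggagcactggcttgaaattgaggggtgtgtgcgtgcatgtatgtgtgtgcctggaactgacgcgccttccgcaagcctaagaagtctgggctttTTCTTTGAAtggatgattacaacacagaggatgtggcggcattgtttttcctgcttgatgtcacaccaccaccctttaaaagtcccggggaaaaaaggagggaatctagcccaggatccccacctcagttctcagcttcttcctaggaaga

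**Figure D5:**
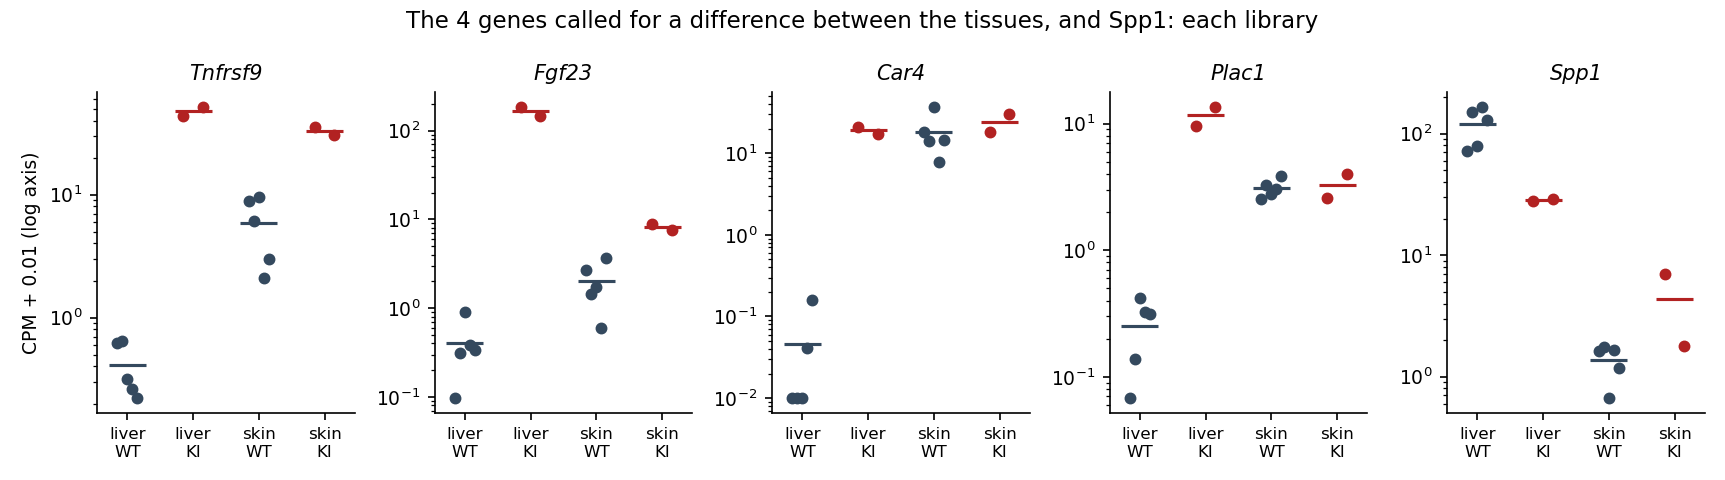
CPM plus 0.01 on a log axis for the 4 genes called for a difference between the tissues and for Spp1, 1 point per library, WT in dark blue and KI in red, with bars at the group means. The KI livers stand far above the WT livers in the first 4 panels, the KI skins stand above the WT skins for Tnfrsf9 and Fgf23, and Spp1 is lower in the KI livers and higher in the KI skins.

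No gene met the rule for opposite directions, which needs a called difference. Without that requirement, 25 of the 14206 genes tested had both KI livers below every WT liver and both KI skins above every WT skin. The reverse held for 56. In single tissues the shares were 11.3% below in the liver and 5.19% above in the skin, and in reverse 13.0% and 4.97%. Both KI mice lay on the same side in both tissues for 299 genes (above) and 87 (below). Spp1, which encodes osteopontin, was one of the 25 genes below in the liver and above in the skin. It stood at 27.9 and 29.1 CPM in the KI livers and at 71.8, 152, 79.6, 167 and 130 in the WT livers. The KI skins held 6.93 and 1.79 CPM and the WT skins 1.63, 1.73, 0.655, 1.65 and 1.16. The liver groups were far apart, and in the skin KI 2 barely exceeded WT 2. Its difference of 3.54 (95% interval 2.21 to 4.87) had an unadjusted p of 0.000271 (adjusted p = 0.249 from edgeR).

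The liver calls were followed into the skin by direction. Of the 547 genes called higher in the liver and tested in both tissues, 78.43% had a log2 fold change above 0 in the skin, against 44.1% of all genes. In 30.53% of them both KI skins lay above all WT skins. They had median log2 fold changes of 0.75 (liver) and 0.28 (skin). The 227 genes called lower in the liver had no such counterpart: 55.51% were below 0 in the skin, against 55.9% of all genes, the KI skins lay below all WT skins for 3.084%, and the medians were -0.57 and -0.02. The same mice gave both tissues, so that these shares are descriptions. A further 35 higher and 24 lower liver genes were not tested in the skin. Over all genes the log2 fold changes of the tissues correlated with r = 0.189, across genes that are not independent.

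Of the 10 lower genes, the largest in the mean were Cxxc4, Zfp503 and Adamts15, with liver log2 fold changes of -2.79, -1.55 and -1.27, and skin values of -0.37, -0.40 and -0.29. Fbxl17, an F-box protein gene, fell by a like amount in each tissue: it stood at 21.7 and 25.4 CPM in the KI livers, against 33.7, 31.8, 32.5, 38.1 and 28.3, and at 37.3 and 31.6 CPM in the KI skins, against 46.8, 51.9, 55.1, 55.2 and 48.1. All KI values were under the WT values, and the mean over both tissues was -0.51 on the log2 scale (adjusted p = 0.0174 from limma), not called without KI 2 (adjusted p = 0.264 from limma). The mean effect of Cxxc4 (-1.48) was called in 7 of 15 alternatives, and was lost without KI 1 or KI 2 (adjusted p = 0.472 and 0.828 from limma) and without each WT mouse but WT 3. Zfp503 was called in 8 of 16 alternatives and Adamts15 in 7 of 16. Atad5, which unloads the replication clamp, had log2 fold changes of -0.70 (liver) and -0.33 (skin).

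The other lists held 0 genes that moved alike. Cell-cycle genes had medians of -0.20 in the liver and -0.22 in the skin over 22 genes, with 1 called lower in the liver, Mki67 (-0.50). Cholesterol synthesis genes, 17 in both tissues, had -0.07 and -0.50. The 19 immediate early and stress genes, which respond to handling of tissue, had medians of 0.08 in the liver and 0.82 in the skin with 0 called in either. Fosb, one of them, ranged from 4.19 to 142 CPM among the WT skins, and the KI skins stood at 170 and 77.7 CPM. The hypoxia list (13 genes) had 0.08 and 0.29, the glucocorticoid and fasting list (15 genes) -0.26 and 0.13, and the fibrosis and matrix list (13 genes) -0.62 and 0.15. None of the genes in these lists was called for a difference between the tissues.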

How the data were processed

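RNA of the liver and skin of 2 KI and 5 WT newborn mice was sequenced as paired-end reads. Per the study's methods adapters were removed and TopHat2 placed the reads on mm9, and the submitters' processing notes also name HTSeq and DESeq, without versions. For each library the file deposited by the authors gives the count of reads per gene symbol without normalization, and strand is not given in the sources used here. The 5 summary lines, which name no gene and hold 32.01% to 36.27% of each library's counts, were left out. Brain libraries were not analysed here.

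Genes were filtered by genotype with filterByExpr (minimum count 10) in each tissue, which left 14966 of 24391 genes in the liver, 16163 in the skin and 14206 in both. A total of 218 liver and 174 skin genes passed with fewer than 2 WT libraries above the minimum. TMM factors and edgeR 4.0.16 (R 4.3.3) served for the quasi-likelihood test of the counts, per tissue and, with mouse, tissue and the genotype by tissue term, for the difference between tissues. The mean effect was fitted with limma 3.58.1 (voom, with the correlation of a mouse's tissues estimated at 0.131). Benjamini-Hochberg adjusted p under 0.1 was called. Gene lists are described by counts and medians. The fits were tested on simulated data.

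The members, lists and rules were chosen with earlier results of these data known. Chosen for naming, with a mean of at least 1 CPM, were the 15 higher and 5 lower genes moving alike with the largest mean change. The genes called for the difference, the genes called in the skin and the 5 largest opposite changes (none met it) were also chosen. So were, in each list, the 2 members with the largest mean effect and the 2 with the largest difference. Some genes were followed, of which Jak1, Stat3, Socs1, Socs3 and Il6 are reported here. Not every chosen gene is described, and Mcpt8, Serpina3g and Klrb1b, of the 15, are among those left out. Predicted genes were counted and not named, and other names were chosen after their values were seen. Alternatives were DESeq2 1.42.0, its size factors, other filters, TMM within each tissue, a fit with no mouse terms, limma-voom for the difference, limma-trend on mouse means, an adjusted p of 0.05, Y-linked expression, the replicate number as a block and each mouse left out. Gene positions are from the mm9 annotation GENCODE M1 and promoters from RefSeq (GRCm38.p6).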

Additional observations from a re-analysis of the deposited data

Results flagged for a closer look

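The effect of the knock-in differed between the tissues for 4 genes by edgeR's within-mouse test. The differences, skin minus liver on the log2 scale, were -8.48 for Car4 (adjusted p = 0.0615 from edgeR), -6.61 for Fgf23 (adjusted p = 0.0631), -5.57 for Plac1 (adjusted p = 0.0623) and -4.29 for Tnfrsf9 (adjusted p = 0.0604). Over the 16 alternatives that gave a value for each, the differences of Tnfrsf9 ran from -4.55 to -4.01 and were called in 9, those of Fgf23 from -7.60 to -6.18 (called in 9), those of Plac1 from -6.73 to -5.32 (called in 9) and those of Car4 from -12.13 to -7.89 (called in 10).

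Single WT samples stood far from the other 4 of their group by Dixon's ratio in 12 of 160 groups of 5, where chance flags about 1 in 20. Values are in CPM, with the nearest other WT sample after each. WT 4 held 5.65 of Clec4e in the liver (3.73) and 0.501 in the skin (0.098), 1 of H2-DMb2 in the liver (0.58), 723 of Tat in the liver (213), 0.943 of Fgf21 in the skin (0.0596) and 1.24 of Mmp9 in the skin (2.08). WT 3 held 11.2 of Lrg1 in the skin (6.73) and 3.65 of Clec4d in the liver (5.95). WT 5 held 0.15 of Car4 in the liver (0.0314) and 0.599 of H2-Oa in the skin (0.288). WT 2 held 0.865 of Il6 in the skin (0.147) and 25.1 of Sprr1a in the skin (6.92).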

How the results depend on the processing

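The main counts were 833 genes in the liver, 4 in the skin, 347 for the mean effect, 227 moving alike, 4 for the difference between tissues and 4 counted under the rule for 1 tissue (a called difference, and a call in the liver and not in the skin). At an adjusted p under 0.05 they were 383, 0 and 219, with 0 for the difference and 0 in 1 tissue. DESeq2 called 1489 genes in the liver, 107 in the skin and 172 for the difference. With Y-linked expression as a covariate, since KI 2 and WT 3 expressed Y-linked genes, 412 genes were called in the liver and 1 in the skin. Of the filters that ignored genotype, filterByExpr without genotype groups gave 0 for the difference and 0 in 1 tissue. That of at least 1 count in total gave 5 and 5. With the keratinocyte sum as a covariate, chosen after seeing the data, the counts were 8 in the skin, 7 for the difference and 7 in 1 tissue. For the difference, an edgeR fit of 4 groups with no mouse terms gave 17 (also 17 in 1 tissue) and limma-voom 19. With limma-trend on mouse means, 142 genes had a mean effect and 111 moved alike, 108 of them among the 217 higher genes. Leaving out each mouse in turn gave 56 to 1290 genes in the liver, 0 to 1 in the skin, 34 to 446 for the mean effect, 30 to 320 moving alike, 0 to 7 for the difference and 0 to 6 in 1 tissue.

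KI and WT mice share only the numbers 1 and 2, and same-numbered libraries correlated with r = -0.0083 and -0.0705 in the liver and 0.101 and -0.0135 in the skin, so the numbers were not taken as pairs. With the replicate number as a replicate block, 0 skin genes, 0 differences and 0 genes in 1 tissue were called, 1380 genes had a mean effect and 325 moved alike, which included all 217 higher genes.

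Among named genes, the sign turned in 13 values of 4 genes. The skin log2 fold change of Socs1 was 0.01 with DESeq2, its size factors or no filter, 0.06 with the Y-linked covariate, 0.15 without KI 1 (-0.13 without KI 2), 0.05 without WT 1 or WT 2 and 0.10 without WT 5. The difference of Sprr1a was -0.02 with the block, -2.02 without KI 1, 2.45 without KI 2 and -0.06 without WT 5. The difference of Il22ra1 was 0.33 without KI 2 and -4.03 without KI 1, and the mean effect of Krt17 was 0.18 and -2.49. The cause of these changes was not tested. Of the other single values, 1440 kept direction and call, 162 lost the call and 17 gained it. With 2 KI mice and more variable skins, a gene not called in the skin is not shown to be unaffected there.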

Other observations

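Some genes had an unadjusted p below 0.05 for the difference between tissues and did not pass the adjustment. With the larger change in the liver, Timp1, an inhibitor of matrix metalloproteinases, stood at 5.07 and 5.94 CPM in the KI livers against 1.21, 1.71, 1.36, 2.57 and 1.29, and at 11.4 and 14.9 CPM in the KI skins against 10.9, 13.5, 8.91, 11.4 and 15.3. Its log2 fold changes were 1.75 and 0.13, and the difference of -1.64 had an unadjusted p of 0.00208. In the other direction, Il6ra, the ligand-binding chain of the IL-6 receptor, stood at 20.2 and 14 CPM in the KI skins against 11.2, 6.35, 10.6, 11.1 and 7.61, and overlapped in the liver, with log2 fold changes of 0.02 and 0.87 and an unadjusted p of the difference of 0.0109. Cxcl10, an interferon-induced chemokine, had log2 fold changes of 0.45 in the liver and 1.45 in the skin (unadjusted p of the difference 0.0348). None of these differences was called by edgeR among all genes tested.

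Markers of B lymphocytes summed to 149 and 136 CPM in the KI livers against 83.7 to 112 in the WT livers, and Cd79a, Cd79b and Blk were called higher there. Of the mast cell markers, 3 of 6 tested in the liver were called higher (Cpa3, Hdc and Ms4a2). The other 3, Kit, Cma1 and Tpsb2, had liver log2 fold changes of -0.17, -0.86 and -1.89 and were not called. Erythroid markers summed to 2500 and 2390 CPM in the KI livers against 2830 to 3900, with Slc4a1, an anion exchanger of red cells, called lower (log2 fold change -0.51, adjusted p = 0.0956 from edgeR). Of the adipocyte list, 4 of 8 genes were tested in the liver and Fabp4 and Pparg were called higher, Fabp4 at 203 and 199 CPM against 67.2 to 92.4. Cidec and Car3, also tested, had liver log2 fold changes of -1.22 and -0.69 and were not called. Adipoq, Plin1 and Lep were at 0 in both KI livers. No T lymphocyte marker was called in either tissue, and in the skin no marker of these 5 lists was called.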
